A study of Homo sapiens with 10 samples.

Results

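KLF7, KLF13, ZNF536, DACH1, EYA1 and SATB1, genes for 6 regulators of transcription linked to the adrenergic neuroblastoma state, were followed across the chromatin maps of the corepressors RCOR1, RCOR2 and RCOR3 and of the demethylase LSD1. They are 6 of the 19974 protein-coding genes of the RefSeq table (GRCh38.p14, chromosomes 1 to 22 and X), were taken by name, and were each read over the gene body plus 50 kb on either side, which came to 2177 kb in all. A region of a protein is a stretch of merged peaks that holds a peak of both of its libraries, and a fold is the enrichment over local background that the authors' peak caller gave a peak. The windows held 74 such regions (27 of RCOR2, 19 of LSD1, 18 of RCOR1 and 10 of RCOR3), which merged into 41 places, out of 46988 in the genome. Where 2 folds are joined by "and", they belong to replicates 1 and 2 of the labels in that order. The peak names inside the lists of RCOR1 replicate 2, RCOR3 replicate 2 and all FLAG libraries carry other replicate names, so a number shared by libraries of different groups was not taken to pair them.

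The 10 ChIP-seq libraries came from Kelly, a MYCN-amplified neuroblastoma line that the labels call adrenergic, in 5 groups of 2. RCOR1, RCOR3 and LSD1 were precipitated with their own antibodies from cells without treatment. RCOR2 carried a triple FLAG tag and was precipitated through it from cells given 2 µg/mL doxycycline, and cells with the same construct but no doxycycline were the background, all with a time of 48 h in the labels. The LSD1 cells were not the same as the others: they hold an inducible hairpin RNA against RUNX1T1, which was left uninduced. The promoter of the RCOR2 construct, and whether either derivative is a single clone, are not stated in the labels, and nothing says that replicates were separate cultures, so p-values measure only the spread between these libraries. Peak lists hold no RNA levels, so neither the adrenergic label nor the expression of the 6 genes could be checked. Differences between proteins also carry differences of antibody, and for tagged RCOR2 and LSD1 of cells.

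LSD1 removes methyl groups from lysine 4 of histone H3 and works in complexes in which a CoREST protein, RCOR1, RCOR2 or RCOR3, joins it to histone deacetylases and to nucleosomes. In sympathetic neuroblasts and in adrenergic neuroblastoma, a circuit of transcription factors keeps itself and the noradrenergic genes active from large enhancers. KLF7 and KLF13 are Krüppel-like factors whose zinc fingers bind GC-rich and CACCC-type DNA, and KLF7 is known for its role in the growth of sensory and sympathetic axons. ZNF536 is a zinc finger repressor of the nervous system, DACH1 and EYA1 belong to the network of eye and sensory organ determination, in which EYA1 is both a phosphatase and a coactivator of homeodomain proteins, and SATB1 binds AT-rich DNA and shapes chromatin loops.

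The libraries differed in their number of peaks, from 13644 to 75643 for the 4 proteins and 10253 and 14958 for the uninduced control, and read depth is unknown because the files hold peaks only. RCOR1 replicate 1 stood apart: only 18 of its 65 peaks in the 6 windows (27.7%) met a peak of replicate 2, against 19 of 22 (86.4%) in the other direction. Over the whole genome these shares were 27.8% and 83.2%. Every RCOR1 region below therefore rests on the shorter list of replicate 2, and single-library values are given beside it.

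In the 250 bases before the annotated starts of these genes, the number of CpG dinucleotides and overlap with an RCOR2 region went together. RefSeq start windows (the 250 bases before each start) were at hand for 5 of the 6 genes, 14 windows in all. EYA1 has no entry. A group of 8 is shown because it covers each gene with a window that met an RCOR2 region and, for KLF7, ZNF536 and SATB1, one that did not. Sequences are from RefSeq, GRCh38.p14, 5′ to 3′ on the gene's strand, and capitals mark CpG dinucleotides.
KLF7 start at 207166856, chr2:207166857-207167106 (minus strand): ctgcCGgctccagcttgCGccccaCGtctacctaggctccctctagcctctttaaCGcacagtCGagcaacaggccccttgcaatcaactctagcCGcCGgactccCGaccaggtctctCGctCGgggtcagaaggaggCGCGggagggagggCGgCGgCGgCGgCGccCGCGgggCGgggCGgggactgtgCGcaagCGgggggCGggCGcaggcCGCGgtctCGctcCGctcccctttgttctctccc
KLF7 start at 207134137, chr2:207134138-207134387 (minus strand): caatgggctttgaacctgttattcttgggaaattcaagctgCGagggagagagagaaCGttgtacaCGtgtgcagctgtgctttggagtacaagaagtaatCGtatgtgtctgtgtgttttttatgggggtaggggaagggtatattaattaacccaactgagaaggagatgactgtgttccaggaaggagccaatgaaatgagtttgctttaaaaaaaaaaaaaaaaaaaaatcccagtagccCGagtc
KLF13 start at 31326835, chr15:31326585-31326834 (plus strand): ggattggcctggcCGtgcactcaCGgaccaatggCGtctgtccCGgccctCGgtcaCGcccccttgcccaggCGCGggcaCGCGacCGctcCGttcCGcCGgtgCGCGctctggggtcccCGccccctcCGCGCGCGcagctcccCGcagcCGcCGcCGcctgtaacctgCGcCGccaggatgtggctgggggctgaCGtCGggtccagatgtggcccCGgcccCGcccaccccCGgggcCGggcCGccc
ZNF536 start at 30227888, chr19:30227638-30227887 (plus strand): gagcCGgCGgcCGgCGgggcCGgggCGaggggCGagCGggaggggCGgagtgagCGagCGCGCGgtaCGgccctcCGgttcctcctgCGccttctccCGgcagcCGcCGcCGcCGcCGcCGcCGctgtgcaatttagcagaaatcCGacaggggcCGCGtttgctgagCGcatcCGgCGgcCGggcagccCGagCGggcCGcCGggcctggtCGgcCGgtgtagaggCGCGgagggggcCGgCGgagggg
ZNF536 start at 30372384, chr19:30372134-30372383 (plus strand): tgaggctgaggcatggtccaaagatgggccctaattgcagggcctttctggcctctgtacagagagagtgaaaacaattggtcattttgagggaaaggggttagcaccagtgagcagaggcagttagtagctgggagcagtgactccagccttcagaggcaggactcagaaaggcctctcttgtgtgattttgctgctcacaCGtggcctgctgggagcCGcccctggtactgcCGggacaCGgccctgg
DACH1 start at 71867204, chr13:71867205-71867454 (minus strand): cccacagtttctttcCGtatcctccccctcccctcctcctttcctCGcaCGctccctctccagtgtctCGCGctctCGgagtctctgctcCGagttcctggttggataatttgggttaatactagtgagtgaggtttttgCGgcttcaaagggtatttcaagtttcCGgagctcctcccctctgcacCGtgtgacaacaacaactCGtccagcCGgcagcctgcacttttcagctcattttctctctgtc
SATB1 start at 18425339, chr3:18425340-18425589 (minus strand): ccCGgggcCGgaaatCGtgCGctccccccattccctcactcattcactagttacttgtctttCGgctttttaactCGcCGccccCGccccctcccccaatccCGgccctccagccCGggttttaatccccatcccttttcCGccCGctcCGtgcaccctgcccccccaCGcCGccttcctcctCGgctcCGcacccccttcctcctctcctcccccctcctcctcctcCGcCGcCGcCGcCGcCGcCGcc
SATB1 start at 18438736, chr3:18438737-18438986 (minus strand): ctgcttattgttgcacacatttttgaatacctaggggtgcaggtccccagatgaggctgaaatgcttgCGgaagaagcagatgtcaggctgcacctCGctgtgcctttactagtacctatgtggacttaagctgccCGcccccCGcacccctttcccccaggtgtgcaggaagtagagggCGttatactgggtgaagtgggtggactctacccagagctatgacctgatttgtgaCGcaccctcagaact

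The 9 windows that met an RCOR2 region held 10 to 41 CpG dinucleotides (median 21), and the 5 that met none held 4 to 9 (median 6). The 2 ranges did not overlap. At KLF7 the window of the start at 207166856 had 29 CpG and that of the start at 207134137 had 5. At ZNF536 the counts were 41 and 4, at SATB1 24 and 6, and the RCOR2-bound windows of KLF13 and DACH1 had 34 and 12. The genome shows the same pattern: of protein-coding start windows with at least 10 CpG, a value taken from these genes, 87.6% of 14500 met an RCOR2 region, and of those with fewer 9.93% of 7632 did. GC content overlapped between the groups, from 54% to 79.6% with RCOR2 and from 41.6% to 56.8% without. GGGCGG, the GC box (searched like all motifs on both strands), was in 6 of 9 and 3 of 5 windows, against 42.6% of 35097 RefSeq start windows. The E-box pattern CANNTG was in 2 of 9 and 5 of 5 (61.8% of all). CACGTG, which is one form of CANNTG, was in 0 of 9 and 2 of 5 (6.34%), TAATTA in 1 of 9 and 1 of 5 (4.35%), GGGTGTGG in 0 of 9 and 1 of 5 (2.97%), and TGATAA in none of the 14 (6.66%). Several windows belong to 1 gene, so they are not independent, and these counts are a description without a test.

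At the annotated starts, known for 5 of the 6 genes, RCOR2 held most regions and LSD1 none with replicate support. Elsewhere each held part of the places, 5 of them together. Of the 41 merged regions, 11 lay within 2 kb of an annotated start and 30 elsewhere, 22 of these inside a gene body and 8 outside. RCOR2 held 10 of the 11 start regions and 16 of the 30 others. LSD1 held 0 of 11 (Wilson 95% interval 0 to 25.9%) and 18 of 30 (60.0%, 42.3 to 75.4%). RCOR3 was likewise in 0 of 11 and 9 of 30, and RCOR1 in 4 of 11 and 14 of 30. These intervals cover counting error only. Over all merged regions, the share at starts was 96.8% for RCOR2, 4.77% for LSD1, 12.2% for RCOR3 and 36.1% for RCOR1. Away from starts the shares were 66.4%, 34.5%, 15.5% and 24.7% in that order. The start regions of these genes thus had about the shares of all start regions. Away from starts the LSD1 share of 60.0% stood beside 34.5%, but a higher share was not particular to LSD1. RCOR1 had 46.7% (30.2 to 63.9%) beside 24.7% and RCOR3 30.0% (16.7 to 47.9%) beside 15.5%. RCOR2 had 53.3% (36.1 to 69.8%) beside 66.4%. EYA1, whose starts were not at hand, counts as elsewhere here, and without it LSD1 was in 14 of 24 (58.3%). Counted by the ends of gene bodies alone, 8 of 27 RCOR2 regions (29.6%), 1 of 18 RCOR1, 0 of 10 RCOR3 and 0 of 19 LSD1 regions lay within 2 kb of an end, beside 43.2%, 40.9%, 25.9% and 6.07% of all regions of these proteins.

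**Figure D1:**
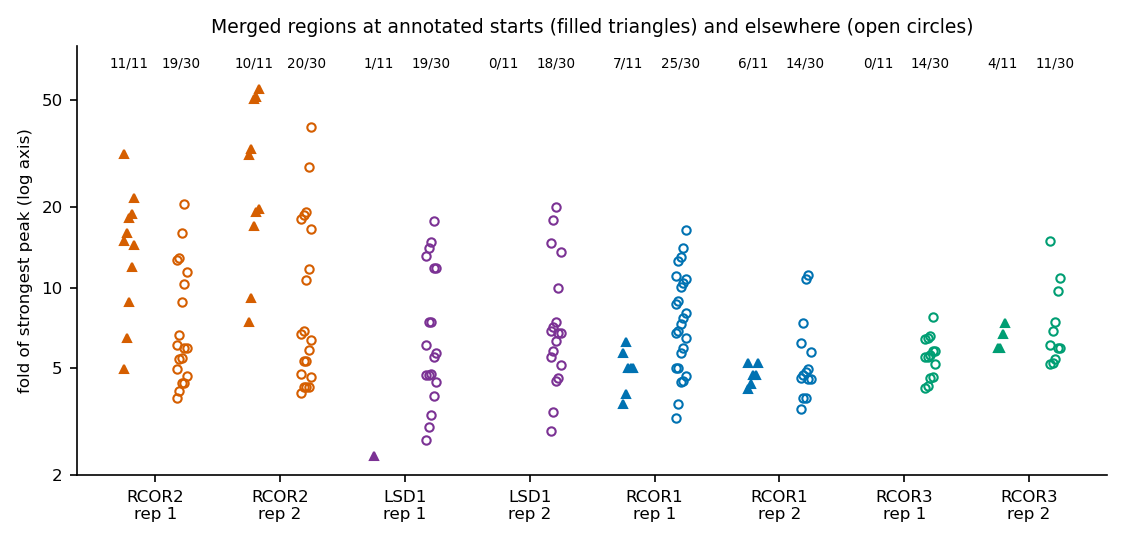
Fold of the strongest peak (log axis) in each of the 8 libraries of the 4 proteins, for the 11 merged regions at annotated starts (filled triangles) and the 30 elsewhere (open circles), with the number of regions that hold a peak above each column. Induced RCOR2 has its highest folds at starts, up to 31.5 and 54.8, whereas LSD1 has a single weak peak there (2.35) and reaches 17.8 and 19.97 elsewhere.

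RCOR2 folds were also higher at the starts, as a description over regions that share libraries and genes, without a test. Its median fold over the start regions with a peak was 14.9 and 25.5 (11 and 10 regions), against 5.97 and 6.55 elsewhere (19 and 20 regions) and 5.55 and 6.61 over all peaks of each library. RCOR1 went the other way in replicate 1, with a median of 5.03 at starts (7 regions) and 7.32 elsewhere (25 regions), and was alike in replicate 2, at 4.73 and 4.79 (6 and 14 regions). The only LSD1 peak in a start region, at DACH1 in replicate 1, had a fold of 2.35. No start-site region of these genes held RCOR3 in both libraries, although RCOR3 replicate 2 had peaks in 4 of them.

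KLF7 (chr2:207074137-207173851, minus strand) had the densest LSD1 binding of the 6. Its window held 18 and 3 peaks of RCOR1, 4 and 5 of induced RCOR2, 3 and 5 of RCOR3, 10 and 8 of LSD1 and 1 and 1 of the uninduced cells. LSD1 formed 7 regions in 6 merged places, since 2 of them lie in the strongest place, and this made 35.0 per Mb of window, a density that 98.7% of all protein-coding genes lay below. The strongest was in the gene body at chr2:207086258-207088608, where LSD1 folds were 14.0 and 17.8, RCOR1 16.5 and 11.1 and RCOR3 6.58 and 6.92. The RCOR1 folds there were above 98.7% and 98.6% of the peaks of their libraries. RCOR2 had a peak in replicate 2 only (4.05). All 4 proteins met 20.1 kb from the nearest start at chr2:207113305-207114011, with LSD1 at 13.2 and 6.34, RCOR1 at 7.32 and 3.52, RCOR2 at 5.49 and 11.8 and RCOR3 at 5.59 and 5.20. The spread between replicates was wide there, about a factor of 2 for 3 of the proteins. LSD1 without replicate support of another protein was found at chr2:207067436-207067961 (11.8 and 14.7), outside the body, and at chr2:207154671-207155312 (11.8 and 13.5), inside it. Weaker LSD1 regions lay at chr2:207143694-207144137 (3.02 and 3.45) and chr2:207205632-207205933 (4.70 and 5.49). RCOR1 replicate 1 had a peak in each of the 6 places, with folds from 3.26 to 16.5.

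The start region of KLF7, chr2:207165558-207167095, showed the reverse. It covers the starts at 207165948 and 207166856 and had the highest induced RCOR2 folds of all 41 places, 31.5 and 54.8, with RCOR1 at 6.28 and 5.21 and no LSD1 peak. Because the RefSeq body reaches to 207173851, this region is not within 2 kb of an end of the body and counts as intragenic by the body alone. Uninduced FLAG cells also had a peak there in both libraries (5.77 and 6.03), below both induced folds.

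KLF13 (chr15:31326835-31435665, plus strand) combined strong RCOR2 at its start with a stretch of shared sites in the body. The window held 8 and 7 peaks of RCOR1, 22 and 13 of induced RCOR2, 5 and 10 of RCOR3, 4 and 4 of LSD1 and 0 and 0 of the uninduced cells. Its start lay in chr15:31325504-31327498, with RCOR2 at 21.6 and 51.6, and a second RCOR2 region followed at chr15:31327617-31328805 (14.4 and 17.01). Neither had LSD1 or a peak of the uninduced cells. Inside the body, all 4 proteins met at 2 places. At chr15:31372515-31373042 RCOR2 had folds of 20.5 and 6.38, RCOR1 10.7 and 4.55, RCOR3 5.81 and 14.9 and LSD1 3.34 and 4.59. At chr15:31397022-31398467 they were 16.0 and 18.1, 8.72 and 7.35, 5.81 and 9.70 and 4.76 and 5.16 in the same order. The second place was the steadier one, since RCOR2 differed by a factor of 3 between replicates at the first. LSD1 folds at these sites were below the median of its libraries (5.52 and 5.81), whereas 4 of the 6 merged places of KLF7 with LSD1 were above it in both.

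Around these shared sites of KLF13, chr15:31402429-31403183 held RCOR3 (5.17 and 7.46) and LSD1 (4.72 and 2.91), and chr15:31391558-31392654 held RCOR2 (8.85 and 16.5) and RCOR1 (5.70 and 4.73). RCOR3 alone was found at chr15:31364452-31364882 (4.23 and 6.11) and RCOR2 alone at chr15:31365977-31366471 (4.43 and 5.85). Upstream of the gene, chr15:31300996-31301821 held RCOR1 (10.1 and 5.78) and RCOR2 (5.43 and 5.32). KLF13 was the member with the most RCOR3: 5 regions, 23.9 per Mb, above 96.0% of genes, and 8 RCOR2 regions at 38.3 per Mb, above 71.9%. Long-window genes are the 3360 with a window at least as long as the shortest of the 6 (200 kb). Among these the KLF13 densities were above 99.3% for RCOR3 and 94.7% for RCOR2. The window also reaches into OTUD7A, a neighbouring protein-coding gene.

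**Figure D2:**
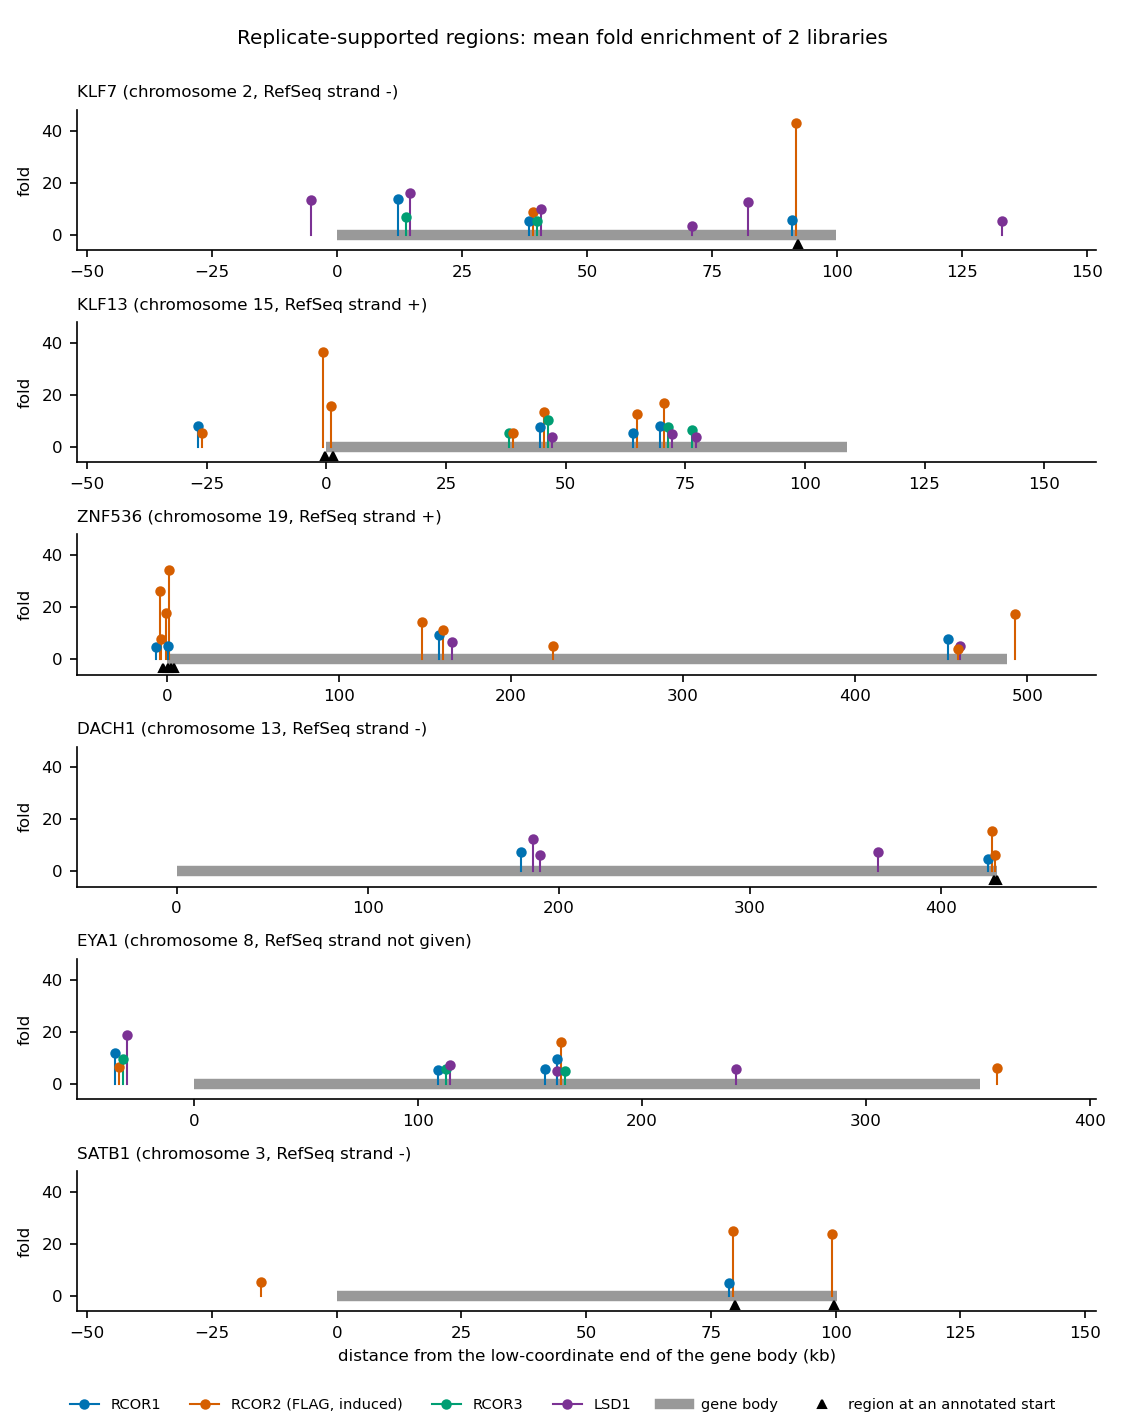
Regions with replicate support along each gene, with the distance from the low-coordinate end of the body (kb) on the x axis and the mean fold of 2 libraries on the y axis; stems of a region that holds several proteins are set slightly apart to be seen. Triangles mark regions at annotated starts, where the tall RCOR2 stems of KLF7, KLF13, ZNF536, DACH1 and SATB1 stand without LSD1, and no starts were at hand for EYA1.

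ZNF536 (chr19:30225592-30713586, plus strand), the longest of the 6 at 488 kb, had most of its strong binding within a few kb of its first 3 starts. The window held 19 and 5 peaks of RCOR1, 16 and 19 of induced RCOR2, 2 and 3 of RCOR3, 5 and 10 of LSD1 and 1 and 5 of the uninduced cells. RCOR2 was at 18.3 and 50.5 in chr19:30227305-30229214, which covers the starts at 30227888 and 30228510, at 16.0 and 19.7 in chr19:30225333-30226811 over the start at 30225592, and at 6.47 and 9.15 in chr19:30223343-30223740. Just beyond, 2.57 kb before the first start, chr19:30222368-30223024 held RCOR2 (12.9 and 39.9) and RCOR1 (5.03 and 3.88), with peaks of the uninduced cells at 4.59 and 3.41. RCOR1 alone had replicate support at chr19:30229424-30229783 (5.03 and 4.73). None of these 5 places held an LSD1 peak in either library.

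LSD1 had 2 regions in the ZNF536 window, 3.40 per Mb, above 69.2% of all genes and 56.2% of the 3360 long-window genes. The first, chr19:30387070-30388020, lay 14.7 kb from the nearest start and held LSD1 at 6.10 and 6.76, RCOR1 at 12.6 and 6.20 and RCOR2 at 11.5 and 10.7, with uninduced replicate 2 at 5.19. The second, chr19:30682752-30683254, was 310 kb away and held LSD1 at 3.94 and 5.83 and RCOR1 at 10.4 and 4.85. RCOR3 had no region with both libraries. The fourth start, at 30372384, had no region within 2 kb. RCOR2 lay 2.35 kb from it, at chr19:30374738-30375641 (10.3 and 18.6). RCOR2 alone was also found at chr19:30450930-30451257 (6.09 and 4.25), chr19:30686399-30686716 (3.87 and 4.25) and, beyond the far end, chr19:30719549-30720049 (6.64 and 28.2), where the replicates differed by a factor of 4 and uninduced replicate 2 was at 5.19.

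DACH1 (chr13:71437966-71867204, minus strand) had 5 merged regions in 529 kb and was sparsely bound by RCOR2 and RCOR3, with 2 and 0 regions. LSD1 gave 5 and 4 peaks in the window, RCOR1 7 and 2, induced RCOR2 3 and 5, RCOR3 1 and 0 and the uninduced cells 0 and 0. Its start lay in chr13:71866850-71867499, where RCOR2 was at 4.98 and 7.44, and a stronger region with RCOR2 (11.9 and 19.1) and RCOR1 (5.03 and 4.73) lay 0.447 kb inside, at chr13:71864790-71866757. LSD1 had 3 intronic or exonic sites, which the table cannot tell apart. The strongest, chr13:71621000-71622080, lay 245 kb from the start and held LSD1 at 14.8 and 10.0 and RCOR1 at 11.1 and 3.88, the latter a factor of 3 apart between replicates. The other two held LSD1 alone, at chr13:71624574-71624971 (5.71 and 6.90) and chr13:71801728-71802285 (7.43 and 7.42). The RCOR2 density of 3.78 regions per Mb was above 12.6% of all genes and 19.9% of the 3360 long-window genes.

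EYA1 (chr8:71197433-71548094) held the strongest LSD1 site of the 6 genes. LSD1 gave 7 and 5 peaks in the window, RCOR1 7 and 4, induced RCOR2 5 and 6, RCOR3 4 and 5 and the uninduced cells 0 and 2. That site lay outside the body, at chr8:71164520-71165641, where LSD1 reached 17.8 and 19.97, RCOR1 13.0 and 10.8, RCOR3 7.76 and 10.9 and RCOR2 5.97 and 6.73. Uninduced replicate 2 had a peak there too (3.82). Of these, LSD1, RCOR1 and RCOR3 were above 92.7% to 98.5% of the peaks of their libraries, and RCOR2 above 53.2% and 50.4%. Inside the body, chr8:71308720-71309138 held LSD1 (7.43 and 7.10), RCOR1 (5.97 and 4.55) and RCOR3 (5.52 and 5.44), chr8:71356422-71357039 held LSD1 (5.49 and 4.47) and RCOR1 (6.89 and 4.61), and chr8:71436451-71436725 held LSD1 (4.43 and 6.78). The strongest RCOR2 of EYA1 was also inside, at chr8:71361553-71362521, with RCOR2 at 12.7 and 19.1, RCOR1 at 14.1 and 4.96 and RCOR3 at 4.65 and 5.22. At this place LSD1 had a weak peak in replicate 1 only (2.71) and the uninduced cells one in replicate 2 (6.13). RCOR2 alone lay at chr8:71556489-71557261 (4.97 and 6.91). No region of any protein lay within 2 kb of either end of the EYA1 body. Its starts were not at hand, so whether a region inside the body lies at a start cannot be told.

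SATB1 (chr3:18345377-18445592, minus strand) was bound by RCOR2 at its outermost and innermost annotated starts and had no LSD1 region. The windows of the other 2 of its 4 starts met no RCOR2 region, although the start at 18444118 is within 2 kb of the region over the outermost start. In the window there were 6 and 1 peaks of RCOR1, 5 and 4 of induced RCOR2, 0 and 3 of RCOR3, 2 and 0 of LSD1 and 0 and 1 of the uninduced cells. RCOR2 was at 14.9 and 33.0 over the outermost start, in chr3:18444407-18445779, and at 18.8 and 31.4 over the innermost, in chr3:18424193-18426168, where RCOR1 was at 5.70 and 4.20. LSD1 and RCOR3 each had peaks in a single library, so neither had replicate support. The region over the outermost start also overlaps SATB1-AS1, a long noncoding RNA gene, and binding there cannot be assigned to either gene. The third region, chr3:18330424-18330633, held RCOR2 at 5.96 and 4.76, below the 8.40 of uninduced replicate 2 at the same place.

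Cells without doxycycline gave the background of the FLAG antibody. A peak of at least 1 uninduced library lay in 8 of the 41 places, all of them RCOR2 regions, and thus in 8 of 26 merged places with RCOR2 (30.8%), beside 26.1% of all RCOR2 regions. Only the KLF7 start and the place before ZNF536 had one in both uninduced libraries. The start regions of KLF13, ZNF536, DACH1 and SATB1 had none. At 2 places, chr3:18330424-18330633 and chr19:30686399-30686716, the uninduced fold (8.40 and 4.72) was above both induced folds. Folds of different libraries are each relative to their own background, so only large gaps can be read.

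Most LSD1 regions of these genes coincided with RCOR1, and fewer with the other CoREST proteins, though the intervals of the 3 shares overlap and the order depended on the setting. Of the 19 LSD1 regions, 11 overlapped an RCOR1 region (57.9%, Wilson 95% interval 36.3 to 76.9%), 7 an RCOR3 region (36.8%, 19.1 to 59.0%) and 5 an RCOR2 region (26.3%, 11.8 to 48.8%). Over all 12694 LSD1 regions these shares were 41.3%, 30.7% and 19.3%, each inside the interval above. A setting of 50% reciprocal overlap applied both to the replicates' peaks and to the overlap of an LSD1 region with the other protein's region. Under it RCOR1 had the lowest count, 2 of 15 LSD1 regions against 3 for RCOR2 and 4 for RCOR3. With peaks above the median fold RCOR1 and RCOR3 each had 3 of 10. The share with RCOR1 also depended on its library: replicate 1 had a peak in 19 of 19 LSD1 regions and replicate 2 in 10 of 19, beside 83.5% and 40.4% of all LSD1 regions. RCOR3 gave 12 and 7 of 19, and induced RCOR2 8 and 9 of 19. The uninduced cells had a peak in 0 and 2 of 19. In 10 of the 18 merged places with LSD1, at least 1 library of each of the 4 proteins had a peak. The places described above as LSD1 alone were not among these 10. All 18 held a peak of RCOR1 replicate 1, so LSD1 alone is meant only at the level of replicate support.

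**Figure D3:**
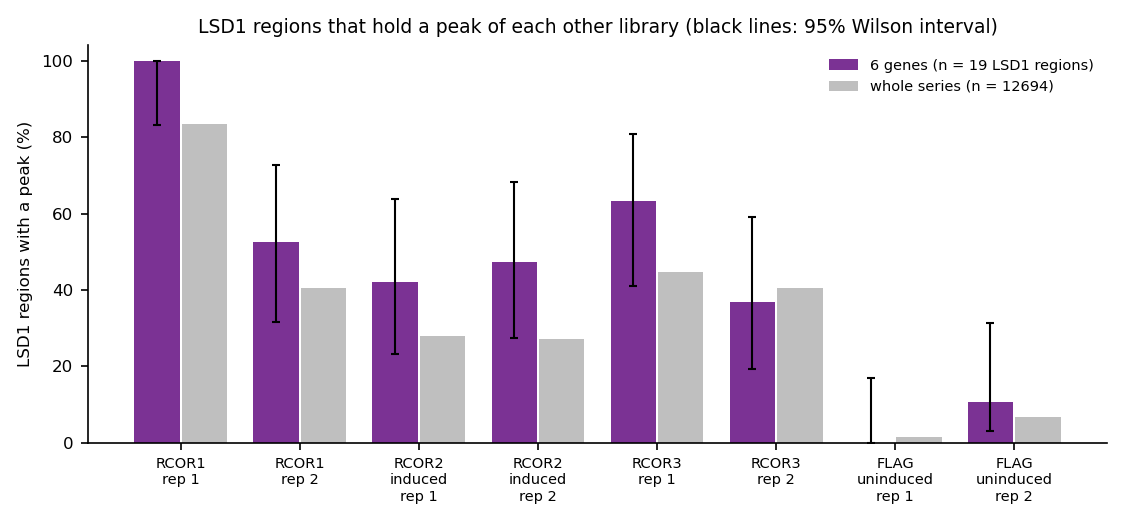
Percentage of LSD1 regions that hold a peak of each library of the other groups, for the 19 regions of the 6 genes (purple, black lines are Wilson 95% intervals) and all 12694 regions (grey). RCOR1 replicate 1 covers all 19 and replicate 2 covers 10, beside 83.5% and 40.4% of all regions.

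The submitters' lists named RCOR2-high and RCOR2-low, whose definition the labels do not give, were set beside the places. Of the 41 places 6 overlapped the high list, 26 the low list and 9 neither. Of the 6 high places 5 were at starts, of KLF7, KLF13, ZNF536, DACH1 and SATB1, and the other was the one before ZNF536. Of the 11 start places the remaining 6 were not in the high list: 3 were in the low list and 3 in neither. All 18 places with LSD1 were in the low list. The 9 in neither list were all RCOR2 alone. Both lists belong to the same series and are named for RCOR2, so they were not used as an independent measure of binding. The shares of all merged regions in these lists are not given here, so the counts cannot be read as a trait of the 6 genes.

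To compare the proteins over whole windows, peaks were counted per Mb and per 10000 peaks of the library. At KLF7 LSD1 had 25.8 and 20.4 (23.1 ± 3.86, SD, n = 2), RCOR1 18.3 and 8.21, RCOR3 11.0 and 9.01 and RCOR2 2.65 and 4.19. The LSD1 libraries lay above all 6 others and the RCOR2 libraries below them. The difference between the 4 proteins had an exact permutation p of 0.0381 (F = 10.9, all assignments of the 8 libraries to 4 pairs), the lowest of the 6 genes, and an adjusted p of 0.220 over the 15722 genes tested. EYA1 followed with an exact p of 0.0571 (adjusted 0.241), with LSD1 at 8.01 and 5.64, RCOR3 at 6.51 and 3.99, RCOR1 at 3.15 and 4.85 and RCOR2 at 1.47 and 2.23. The LSD1 and RCOR3 libraries overlapped there. ZNF536 (exact p = 0.0952), DACH1 (0.152), KLF13 (0.543) and SATB1 (0.886) had adjusted exact p from 0.283 to 0.911.

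None of the 6 genes was called at an adjusted p under 0.05, and neither was any other gene (percent called 0). With 2 libraries per protein the smallest exact p is 0.00952, and 19.0% of all genes would have to reach it for a call, whereas 4.83% did. At an unadjusted exact permutation p under 0.05, 1 of the 6 genes passed, KLF7, beside 19.9% of all genes tested, which is about the same share. KLF7 did not pass at that level without RCOR2 replicate 1, RCOR3 replicate 2 or either LSD1 replicate. Any 2 proteins alone (2 libraries against 2) cannot give an exact p under 0.333. At KLF13 the order was another one, with RCOR3 at 17.5 and 17.2 and LSD1 at 9.88 and 9.74, each pair close together, and RCOR1 at 7.78 and 18.3 spanning both.

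**Figure D4:**
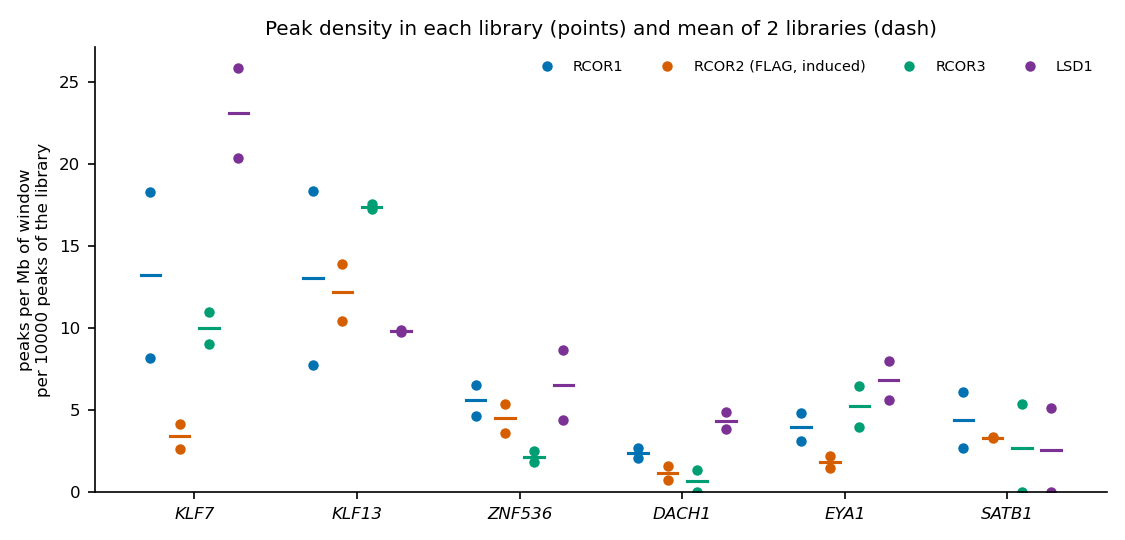
Peaks per Mb of window and per 10000 peaks of the library for the 6 genes, with each library as a point and the mean of 2 as a dash. LSD1 has the highest mean at KLF7, ZNF536, DACH1 and EYA1 and RCOR3 at KLF13, although LSD1 overlaps RCOR1 at ZNF536 and RCOR3 at EYA1, and at SATB1 the libraries of LSD1 and RCOR3 split into 0 and about 5.

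LSD1 regions were present at 5 of the 6 genes, all but SATB1. Among all protein-coding genes 32.5% had one in the same kind of window, and among the 3360 genes with a window at least as long as the shortest of the 6 (200 kb) 53.4% did. RCOR2 and RCOR1 had a region at all 6 (89.7% and 60.5% of all genes, 93.8% and 63.1% of the long ones), and RCOR3 at 3, KLF7, KLF13 and EYA1 (35.5% and 39.5%). A place with all 4 proteins was found at these same 3 genes, beside 8.65% of all and 13% of long genes. RCOR2 lay within 2 kb of an end of the body at 4 genes, KLF13, ZNF536, DACH1 and SATB1 (70.8% of all genes). RCOR1 did so at 1, DACH1 (30.5%), and LSD1 (4.17%) and RCOR3 (10.6%) at none.

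Other regulators of the same cell state were compared through a list of 15 genes. LSD1 was found in the window of 11, RCOR1 of 12, RCOR2 of all 15 and RCOR3 of 11, and 8 had a place with all 4 proteins. Their windows were shorter (median 105.1 kb, against 330 kb for the 6 genes), and their median density of LSD1 regions was 18.2 per Mb, against 7.27 for the 6 genes and 0 for all genes. HAND1 had 11 LSD1 regions (107 per Mb), and GATA2 and PBX3 had 4 each (35.2 and 12.5 per Mb). KLF7, at 35.0 per Mb, thus had a density like that of GATA2. Of 15 regulators of the mesenchymal state, LSD1 was found at 3, FOSL2, RUNX2 and SOX9, and 1 had a place with all 4 proteins. Of 21 paralogs of the 6 genes (among them KLF family members, ZNF516, DACH2 and EYA2 to EYA4), it was found at 7, and none had such a place. EYA2 had 5 LSD1 regions (12.7 per Mb), KLF10 had 3 (28.1 per Mb) and KLF12 had 2 (2.78 per Mb). Among 4 liver and 3 keratinocyte genes, 1 of each had an LSD1 region. The liver gene APOB had 7 (49.1 per Mb), a higher density than KLF7 or GATA2, and a place with all 4 proteins. The keratinocyte gene KRT14 had 1 (9.56 per Mb) and no such place. Dense LSD1 was thus not limited to genes of the adrenergic list. None of the 15 adrenergic, 12 mesenchymal and 17 paralog genes tested for peak density was called at an adjusted p under 0.05. At an unadjusted exact permutation p under 0.05, 3, 2 and 4 of them passed, beside 19.9% of all genes tested. These counts are near that share and are not a trait of the lists.

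The genes whose profile over the 8 libraries was most like that of each member were found by Euclidean distance on the log2 scale of scaled peaks per Mb plus 0.1. These were MORF4L2 (0.769) and CARTPT (0.930) for KLF7, PPIAL4D (0.594) and EFCAB12 (0.652) for KLF13, and PHACTR3 (1.04) and GMDS (1.23) for ZNF536. For DACH1 they were SETBP1 (0.796) and NHSL1 (1.27), for EYA1 GPR65 (0.772), and for SATB1 SLC18B1 (1.12) and CTSH (1.12). Most of these profiles rest on a few peaks per library, and PPIAL4D belongs to a family of near-identical copies, where peaks are uncertain.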

How the data were processed

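ChIP-seq of 4 proteins and an uninduced FLAG control was used, 2 libraries each, grouped by their titles. Per the submitters' processing notes, the tools were BWA 0.7.17 and MACS2 and the build GRCh38. The control library and any later filter are not stated there. Each deposited list holds 1 library's peaks, with a fold ratio over local background and the −log10 of a q-value by the authors' peak caller, and the q-values reach up to 0.05. The high and low lists deposited for the whole series hold positions only. Depth is unknown, so peak numbers limit precision.

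Analysis was limited to chromosomes 1 to 22 and X, and overlap means at least 1 bp. A fold is that of the strongest peak. Bodies and starts come from RefSeq tables (GRCh38.p14), which give no exons. A gene end is 2 kb either side of a body end. Density was tested over genes with at least 8 peaks as log2(peaks per Mb and 10000 peaks + 0.1), by exact permutation of an F statistic (numpy 2.4.6) with Benjamini-Hochberg adjustment, and checked on simulated data. Intervals are 95% Wilson intervals (scipy 1.17.1). By rule, all 6 genes were named, with their regions at ends and up to 4 others by number of proteins and then fold rank (29 regions; the other 12 were added after their values were seen), 2 genes of the most similar profile each, and up to 4 list genes by LSD1 regions; a few genes that the rule names are not reported here. Genes and lists were chosen with earlier results of these data known. The start-site classes, the 10 CpG value, the long-gene background and a pseudocount of 1 were chosen after seeing the data.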

Additional observations from a re-analysis of the deposited data

How the results depend on the processing

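Region counts of the 6 genes moved with how replicate support was defined. RCOR1 had 18 regions, 4 with 50% reciprocal overlap, 8 with equal numbers of top peaks, 5 with peaks above the median fold and 68 with peaks of either library. In the same order of settings RCOR3, with 10, gave 4 with reciprocal overlap, 6 above the median fold and 31 with either library. RCOR2, with 27, gave 11 with equal numbers, 17 above the median fold and 76 with either library, and LSD1, with 19, gave 10 above the median fold and 43 with either library. Without single replicates the counts were 22 to 65 for RCOR1 (65 without replicate 2), 52 to 55 for RCOR2, 15 to 26 for RCOR3 (26 without replicate 1) and 31 to 33 for LSD1, since the remaining library then needs no partner.

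Of RCOR2 regions 29.6% lay at gene ends (8 of 27), 54.5% with equal numbers of top peaks and 14.5% with peaks of either library, and 18.2 to 19.2% without single replicates. For RCOR1 it was 5.56% (1 of 18) and 0 of 4, 0 of 8, 0 of 5 and 0 of 18 (each 0%) with reciprocal overlap, equal numbers, peaks above the median fold and gene ends of 500 bp. The LSD1 share at gene ends was 0% and at most 3.03% in all settings run. For sharing with LSD1 regions, the reciprocal overlap setting also applied to the overlap between the regions of both proteins. The share of LSD1 regions with RCOR1 (57.9%) was 13.3% with reciprocal overlap and 30.0% above the median fold. It was 36.4 to 100% without single replicates (100% without RCOR1 replicate 2). That with RCOR2 (26.3%) was 0% with equal numbers of top peaks, 0 of 14, and 19.4 to 47.4% without single replicates, and that with RCOR3 (36.8%) was 21.2 to 63.2%, the highest without RCOR3 replicate 2. The causes were not tested.

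The density test called 0 of the 6 genes in all settings, also with the replicate block, in which libraries were exchanged only within their number (0 of 6 at an unadjusted exact p under 0.05 as well, smallest possible p 0.0417, and 8.50% of all genes). Nothing in the labels pairs the numbers, peak names in 6 of the 10 lists carry other replicate names, and deviations of same-numbered libraries of different proteins correlated at -0.05 to 0.05 across 15722 genes. The adjusted p of KLF7 ran from 0.182 without RCOR3 replicate 1 to 0.613 without scaling. KLF7 did not pass at the unadjusted level without RCOR2 replicate 1, RCOR3 replicate 2 or either LSD1 replicate, with 20 kb windows, without scaling or by covered base pairs. Taking the peak that overlaps a region most moved no mean fold of the 29 regions named by rule by more than the spread of its replicates. Percentile ranks are in another unit and were not set against folds.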

Other observations

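Identical folds recurred in the RCOR1 replicate 1 list. In 5 of the 41 places, the fold of that library was exactly its median over all peaks, 5.03, a value that 3.30% of its peaks share. They were both start regions and one intragenic region of DACH1, and the place before and the RCOR1 region after the first starts of ZNF536.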
